A study of Drosophila melanogaster with 8 samples.

Results

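The Rab genes of Drosophila melanogaster were examined for embryonic binding of Ribbon (Rib), a BTB-domain transcription factor carrying a green fluorescent protein (GFP) tag. Members were the protein-coding genes of the RefSeq Release 6 gene table whose symbol begins with Rab or RabX and a digit. The rule gave 36 genes of the 13922 protein-coding genes on the 6 chromosome arms. By their names, 33 encode Rab GTPases. The other 3, Rab3-GEF, Rab3-GAP and Rab3GAP1, are named for enzymes that act on Rab3, so the family label holds for 33 of the 36 members.

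Rab proteins are small GTPases that give membranes their identity. In the GTP-bound form a Rab sits on a membrane through lipid anchors and recruits effectors such as tethers, motors and coat adaptors, and in the GDP-bound form it is drawn off the membrane. Guanine nucleotide exchange factors (GEFs) switch Rabs on, and GTPase-activating proteins (GAPs), such as those of the TBC family, switch them off. An escort protein and a dissociation inhibitor deliver and retrieve Rabs. In the embryonic trachea, the airway of the fly, Rab-dependent traffic secretes luminal matrix and moves apical membrane proteins while the tubes grow.

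Whole embryos were fixed in 1.8% formaldehyde for chromatin. In them the GAL4 driver lines btl-GAL4 or trh-GAL4 expressed a UAS transgene, and a goat antibody to GFP was used for chromatin immunoprecipitation and sequencing (ChIP-seq). Both drivers, named after breathless and trachealess, are active in the embryonic trachea, and the transgenic protein is made from the driver and not from the rib locus. The 8 samples were 3 btl and 2 trh immunoprecipitations and 3 inputs, all at stages 11 to 15 by the sample characteristics, or up to stage 16 by the protocol. Sample titles and genotypes read btl-GAL4::UAS-GFP and trh-GAL4::UAS-GFP, whereas the protocol names UAS-rib-GFP. The protocol was followed here, and on the other reading no value below would concern Rib. An immunoprecipitation from embryos without Rib-GFP was not analysed here. Occupancy in a few cells and weak occupancy in many cells cannot be told apart in whole embryos.

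Binding was read from 4 peak lists made by the authors. The btl list, with 8693 summits, and that for trh, with 3210, each came from replicates 1 and 2 of their driver, filtered at an irreproducible discovery rate (IDR) of 0.1. The third list held btl replicate 3 alone (17149 summits on the arms), which had another library kit and sequencing centre, so that replicate and batch cannot be told apart. The highest-confidence list held 2198 regions without summits or values, and how it was assembled is not given in the sources used here. Of these regions, 1758 (80.0%) had exactly the start and end of a trh region, so the list is not a separate measurement. A gene was called bound when a summit, or any part of a highest-confidence region, lay in its body or within 500 bp of either end. Fold enrichment is the authors' value at each summit over background on a linear scale, and rank 1 is the highest fold in a list. The lists carry no values per replicate and no read depth, so no value has a replicate error and no test between drivers was possible.

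The share of Rab genes bound was close to that of all protein-coding genes in the btl list and above it in the other lists. These differences were not tested. In the btl list 11 of 36 were bound (30.6%, Wilson 95% interval 18.0 to 46.9%), against 33.4% of all protein-coding genes. The trh count was 7 of 36 (19.4%, interval 9.75 to 35.0%), against 13.9%. In btl replicate 3 the count was 19 of 36 (52.8%, interval 37.0 to 68.0%), against 39.8%. The highest-confidence list reached 5 of 36 (13.9%, interval 6.08 to 28.7%), against 10.7%. The share over all genes lay inside the members' interval in each of these 4 lists. The intervals cover counting error only. They treat the genes as independent draws and take no account of gene length, so they do not test whether Rab genes differ. Of the 33 Rab GTPase genes alone, 10 (30.3%) were bound in the btl list, 6 (18.2%) were in the trh list, 18 (54.5%) had a replicate 3 summit and 4 (12.1%) a highest-confidence region.

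All 11 btl members and all 7 trh members were also bound in replicate 3, the longest list. Over all protein-coding genes, the same held for 83.8% of the btl genes and 85.7% of the trh genes. Rab11, Rab23, Rab32, RabX6 and Rab3GAP1 were bound in the 3 lists with summits, 5 of 36 against 11.0% of all genes. A further 6 of 36 (Rab6, Rab7, Rab10, Rab14, Rab30 and Rab35) were bound in the btl list and replicate 3 only, against 17.02% of all genes. The trh list and replicate 3 only held 2 of 36 (Rab5 and Rab40), against 0.927%. Replicate 3 alone held 6 of 36 (Rab1, Rab4, Rab8, Rab18, RabX1 and RabX5), against 10.84%. The differences between these shares were not tested. At least 1 list held a summit for 19 of 36 members, against 46.3% of all genes, and 17 had none. The plot of the strongest fold enrichment by gene shows these values.

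**Figure D1:**
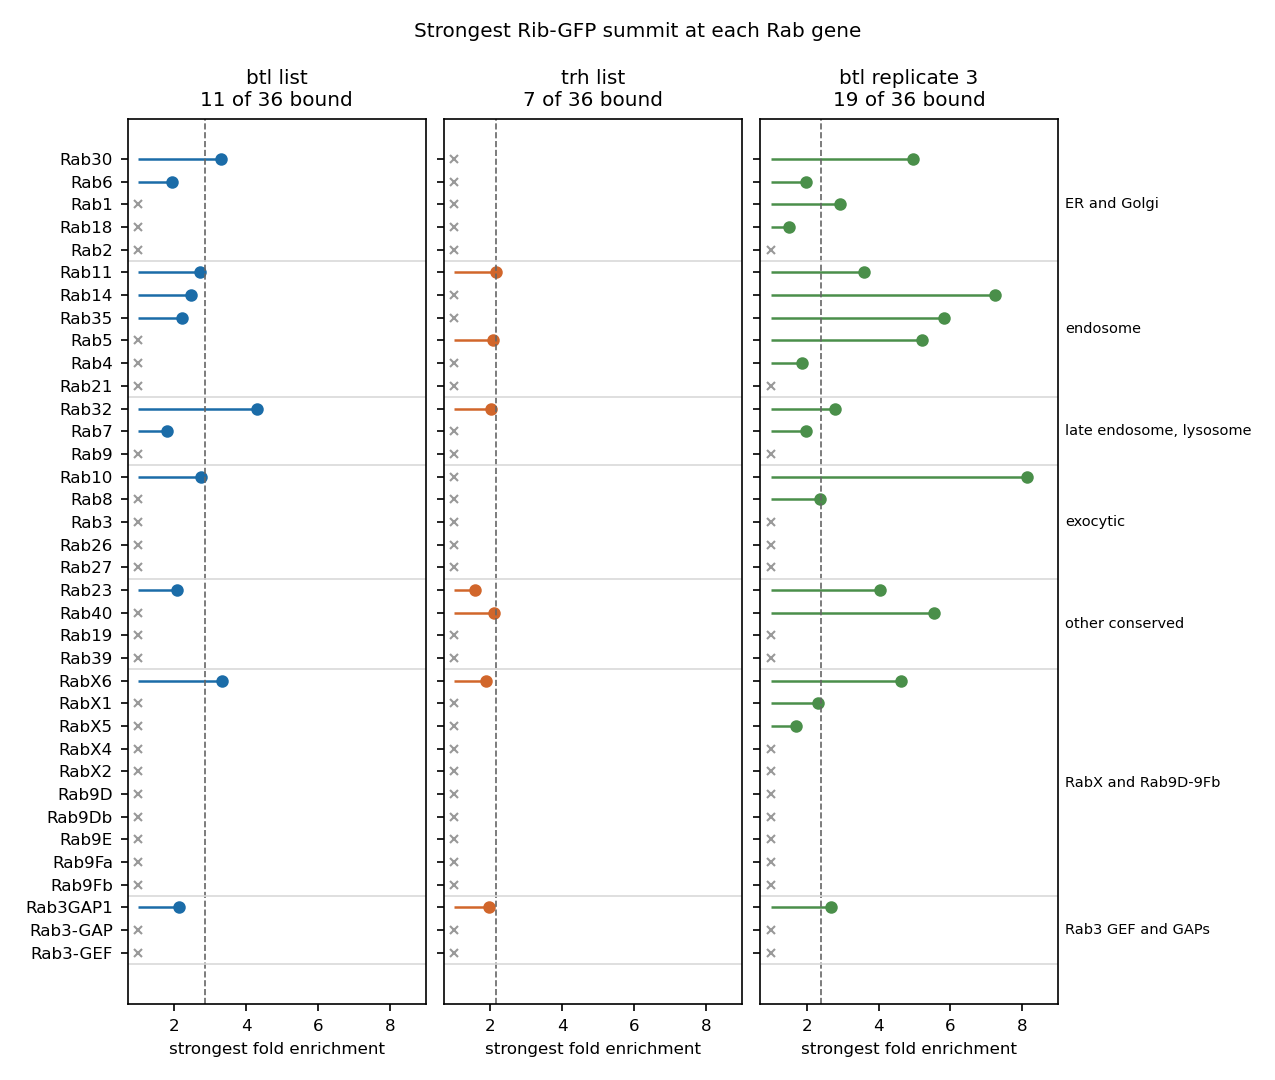
Strongest fold enrichment (x axis, linear ratio over background) at each of the 36 Rab genes (rows, grouped by the role of the protein) in the btl list, the trh list and btl replicate 3. Crosses at the left mark genes with no summit and dashed lines mark the median fold over all summits of each list. The median of the strongest fold per bound gene is higher, at 3.11 against 2.39 in replicate 3. The highest value is 8.14, at Rab10 in replicate 3, and the 7 trh values lie between 1.58 and 2.15.

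The 5 Rab genes of the endoplasmic reticulum and the Golgi included Rab30, with summits in both btl lists, and Rab1, bound in replicate 3 alone. The btl list bound 2 of the 5 (33.4% of all genes), replicate 3 bound 4 (39.8%) and the trh list 0 (13.9%). With so few genes, a count of 0 is near the share over all genes. Rab30, a Golgi Rab (Dmel_CG9100, arm 2L, 7030493 to 7032606), had a fold enrichment of 3.30 in the btl list at a summit 159 bp outside the gene (rank 3018). In replicate 3 the summit lay 298 bp outside the same end, with 4.95 (rank 1147). Both summits were also within 500 bp of Caper. Rab6, which acts in traffic at the Golgi (Dmel_CG6601, 2L, 12107221 to 12109116), had weak summits, with 1.95 in the btl list (rank 7822, 90.0% of the way down the list) and 1.98 in replicate 3 (rank 12216, 71.2% of the way down). The btl summit was also at Phae1.

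Rab1, which directs vesicles from the endoplasmic reticulum to the Golgi (Dmel_CG3320, 3R, 21266029 to 21269060), had 3 summits in replicate 3 and none in the other lists. The folds were 2.92 and 2.57 on either side of the gene end, both also at AP-2sigma, and 1.52 inside the gene. The nearest trh summit was 2484 bp from the gene and the nearest btl summit 16957 bp. Rab18, a Rab of lipid droplets and the endoplasmic reticulum (Dmel_CG3129, X, 5670827 to 5671812), had a fold of 1.52 in replicate 3, at rank 16912 among the weakest summits of that list. Rab2, another Golgi Rab (Dmel_CG3269, 2R, 6696739 to 6699469), was the only one of the 5 with no summit in any list. Its nearest summit was 8076 bp away.

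The 6 endosomal Rab genes included Rab11, bound in all 3 lists, and Rab5. Replicate 3 bound 5 of them (39.8% of all genes), the btl list 3 (33.4%) and the trh list 2 (13.9%), an order that the lists also have over all genes. Rab11 marks recycling endosomes and returns apical and junctional proteins to the cell surface (Dmel_CG5771, 3R, 21111408 to 21116146). It was bound in all 3 lists at sites inside the gene that the rule gave to no other gene. The btl summit lay 820 bp from the lower-coordinate end, with a fold of 2.72 (rank 4887), and the trh summit 1581 bp from it, with 2.15 (rank 1613), the highest trh value of any member. Replicate 3 had summits at 522 and 920 bp with 3.45 and 3.60, and a weak one (rank 14918) beyond the other end, shared with ppan. The regions overlapped in each pair of lists, but the trh summit was 761 bp from the btl summit and 661 bp from the nearest replicate 3 summit. The highest-confidence region at Rab11 spanned 21112801 to 21113205, the coordinates of the trh region. All 6 highest-confidence regions at members had the coordinates of a trh region.

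Rab5, the Rab of early endosomes (Dmel_CG3664, 2L, 2359142 to 2365273), was bound in the trh list and replicate 3 and not in the btl list. The trh list had 2 summits in the gene body, with folds of 1.98 and 2.07. One replicate 3 region of 3938 bp covered the same part of the gene with 4 summits, whose folds were 3.03, 3.80, 5.22 and 3.62 in order of position. The strongest of them, at rank 939, lay 669 bp inside the higher-coordinate end, and the last was also within 500 bp of Axud1. The nearest btl summit, with a fold of 3.72, lay 1750 bp from the gene.

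Rab14, an endosomal Rab (Dmel_CG4212, 2L, 14355145 to 14358764), had 3 summits in the btl list and 3 in replicate 3, at either end and inside the gene. At the lower-coordinate end the folds were 2.45 in the btl list (rank 5951) and 7.24 in replicate 3 (rank 154), and both summits were also at l(2)34Fd. At the other end they were 1.84 and 3.58, shared with Pgant35A. Inside the gene they were 2.16 and 1.98.

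Rab35 acts in endocytic recycling, and together with whacked (wkd), a Rab35 GAP, it is known for shaping the terminal tubes of the trachea. At Rab35 (Dmel_CG9575, X, 20155766 to 20159872) both lists had 1 summit inside the same end, 83 bp apart, that belonged to no other gene by the rule. Its fold was 2.22 in the btl list (rank 6927) and 5.81 in replicate 3 (rank 578). Rab4, a Rab of rapid recycling (Dmel_CG4921, 2R, 17573462 to 17574979), had a single weak summit in replicate 3, with a fold of 1.87. This summit lay 118 bp outside the gene and was also at CG42239. The nearest btl summit lay 757 bp from Rab4, just outside the window. Rab21, an early endosomal Rab (Dmel_CG17515, X, 23012140 to 23013409), had no summit, and the nearest one in any list was 1237 bp away.

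Of the 3 genes for Rabs of late endosomes and lysosomes, Rab32 and Rab7 were bound in at least 1 list (46.3% of all genes). Rab9 was bound in none. The btl list bound 2 of the 3 (33.4% of all genes), the trh list 1 (13.9%) and replicate 3 bound 2 (39.8%). Rab32, which was described in flies as lightoid and is needed to make eye pigment granules, a lysosome-related organelle (Dmel_CG8024, 2R, 9177864 to 9186342), had the highest btl fold of any member. That summit, 4.31 (rank 1360), lay in the gene body 2498 bp from the nearest end, and no other gene shared it. A second btl summit of 3.54, 65 bp inside the higher-coordinate end, was shared with CG45085 and CG8026. The trh list had a summit only at this second site, 22 bp away, with 2.02 (rank 1980). Replicate 3 covered both sites, with 2.78 in the body and 2.06 at the end, and added summits of 2.69 in the body and 1.64 at the other end. Of the 11 members bound in both btl lists, Rab32 was the one whose strongest fold was lower in replicate 3, and the values were not tested against each other.

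Rab7, which brings late endosomes and lysosomes together (Dmel_CG5915, 3R, 23993008 to 23995452), had weak summits. The fold was 1.80 in the btl list (rank 8202, 94.4% of the way down the list), the lowest strongest fold of the 11 btl members, and 1.97 in replicate 3 (rank 12341, 72.0% of the way down). Both summits were also at Epp. Replicate 3 had weaker summits of 1.54 and 1.49 inside the gene and beyond its other end, the latter also at CG33108 and LSm3. Rab9, of traffic between late endosomes and the Golgi (Dmel_CG9994, 2L, 19432574 to 19435841), had its nearest summit 3641 bp away.

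Among the 5 genes for exocytic Rabs, Rab10 and Rab8 were bound in at least 1 list (46.3% of all genes). Rab3, Rab26 and Rab27 were bound in none. The btl list bound 1 of the 5 (33.4% of all genes), the trh list 0 (13.9%) and replicate 3 bound 2 (39.8%). Rab10, which directs secretion of basement membrane proteins in fly follicle cells (Dmel_CG17060, X, 20251338 to 20254691), had the strongest replicate 3 summit of all members. Its fold was 8.14 in that list (rank 70 of 17149), 231 bp outside the lower-coordinate end. In the btl list it was 2.74 (rank 4805) at a summit 8 bp away. Both summits were also within 500 bp of CG17068. Rab8, of transport to the cell surface (Dmel_CG8287, 3L, 19867488 to 19871078), had 2 summits in replicate 3 alone, with 2.35 and 2.38, both shared with Usp32. Rab3 and Rab27, which act at synaptic and other regulated secretory vesicles, had their nearest summits 2276 and 1882 bp away, and the nearest to Rab26 was 798 bp away.

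The remaining conserved members were Rab19, Rab23, Rab39 and Rab40. Rab23 limits hair formation in the wing epithelium (Dmel_CG2108, 3R, 5680054 to 5685434), and its summits in the 3 lists belonged to no other gene. At the site shared by the lists, inside the gene, the folds were 2.07 in the btl list (rank 7440), 1.58 in the trh list (rank 3044, the weakest trh member) and 4.05 in replicate 3 (rank 2348). The summits of this site lay at most 89 bp apart. A second btl summit had rank 8308, and replicate 3 had 3 more, with 2.36, 2.88 and 2.86, in the same region of 3235 bp.

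Rab40, whose mammalian relatives carry a SOCS box that joins ubiquitin ligases (Dmel_CG1900, X, 12459796 to 12463112), was bound in the trh list and replicate 3. The trh summit had 2.09 (rank 1776) and lay 7 bp from a replicate 3 summit of 5.56 (rank 711), inside the higher-coordinate end and shared with no gene. A second replicate 3 summit of 4.81 outside that end was shared with CG42258. The nearest btl summit was 3988 bp from Rab40. Rab19 was the closest miss of all members, with a btl summit at 521 bp from the gene and a replicate 3 summit of 2.92 at 642 bp. For Rab39, a replicate 3 summit of 1.63 lay 623 bp away.

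The other 10 GTPase genes are the RabX genes and the Rab9D, Rab9Db, Rab9E, Rab9Fa and Rab9Fb copies on the X chromosome. Their median length was 893 bp, against 2163 bp for all protein-coding genes. RabX6 (Dmel_CG12015, 3L, 690517 to 691951) was bound in all 3 lists at 1 place, 35, 23 and 48 bp inside the lower-coordinate end in the btl list, the trh list and replicate 3. The folds there were 3.32 (rank 2959), 1.87 (rank 2412) and 4.63 (rank 1478), and all 3 summits were also at CG32483. A weaker replicate 3 summit of 1.73 further inside the gene was shared with Vti1a. RabX1 and RabX5 were bound in replicate 3 alone. RabX1 had 2.32 at a summit shared with mi, and RabX5 had summits of rank 15410 and 16611 of 17149, shared with RpL23A, a ribosomal protein gene. RabX2, RabX4 and the 5 Rab9 copies had no summit in any list. Whether reads map uniquely to those copies is not given in the sources used here, so their lack of summits is uncertain.

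Of the 3 members that are not GTPases, Rab3GAP1 (Dmel_CG31935, 2L, 1594822 to 1611157), for a subunit of the Rab3 GAP, was bound in all 3 lists. The folds were 2.12 in the btl list (rank 7293), 1.97 in the trh list (rank 2110) and 2.67 in replicate 3 (rank 6763), at summits at most 56 bp apart in the gene body, and replicate 3 had another of 1.73. The gene overlaps haf, to which the rule also gave these summits. Rab3-GEF, the longest member at 24081 bp, and Rab3-GAP had no summit in any list. Their nearest summits were 3473 and 2351 bp away.

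**Figure D2:**
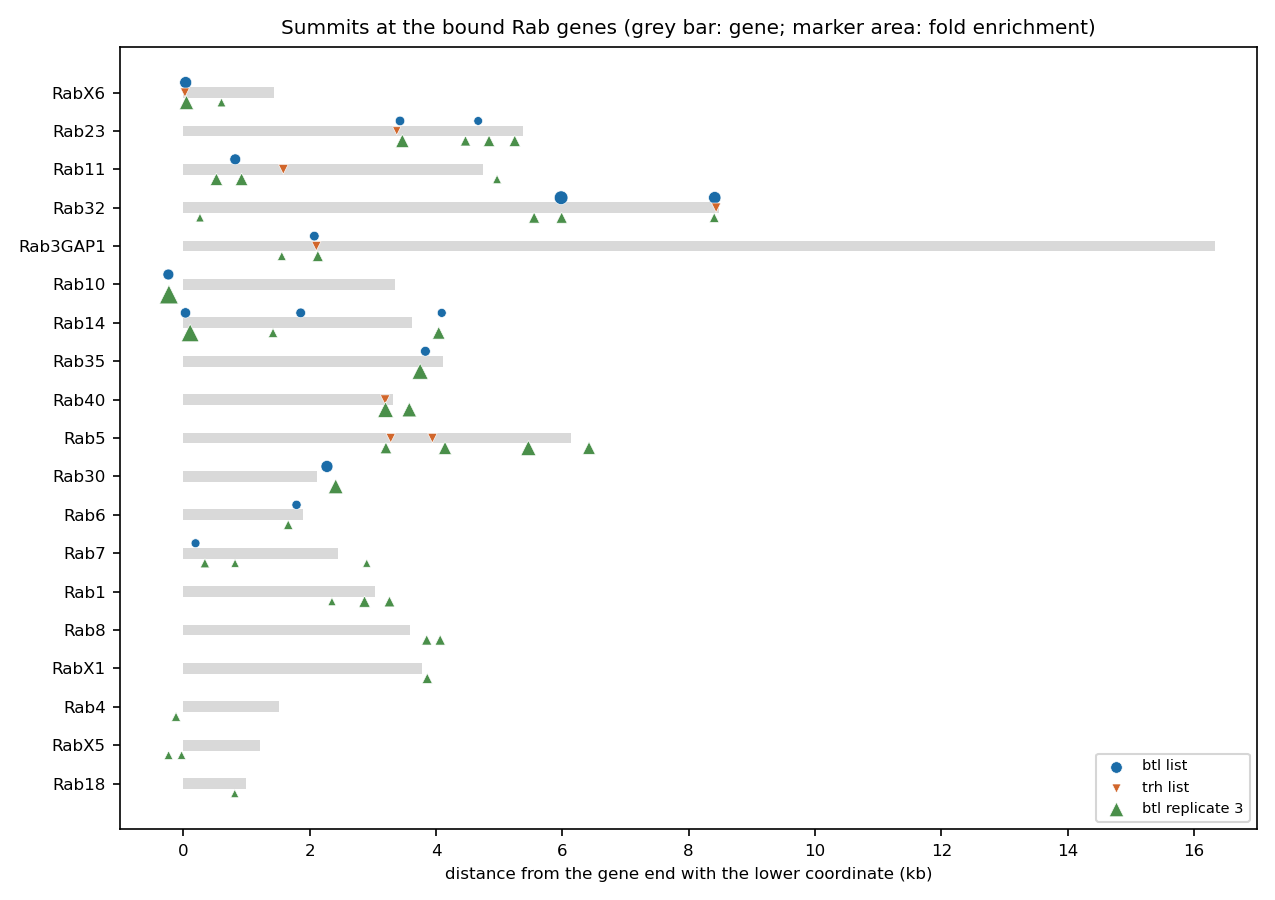
Position of every summit at the 19 bound Rab genes. The x axis is the distance in kb from the gene end with the lower coordinate, grey bars are the genes, symbols mark the btl list (circles), the trh list (triangles pointing down) and btl replicate 3 (triangles pointing up), and their area is proportional to fold enrichment. The btl and replicate 3 summits at Rab10 lie 8 bp apart, and the trh summit at Rab11 stands 761 bp from the btl summit.

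Where a member was bound in more than 1 list, at least 1 region of each list overlapped a region of the other, as the map of summits shows. Regions overlapped for 11 of 11 members bound in the btl list and replicate 3, 5 of 5 bound in the btl and trh lists, and 7 of 7 bound in the trh list and replicate 3. The nearest summits were within 100 bp for 8, 4 and 6 of these genes, with medians of 56, 32 and 30 bp. The strongest summits could lie further apart: the strongest trh summit was 2455 bp from the strongest btl summit at Rab32, and 1520 bp from the strongest replicate 3 summit at Rab5. The overlap over all genes was not counted. Summits at the ends made up 9 of 15 btl, 3 of 8 trh and 25 of 41 replicate 3 summits, and the others lay deeper in the genes. The same share over all summits is not reported here. With gene ends alone counted, the btl list bound 8 members against 26.7% of all genes, the trh list 3 against 8.32%, and replicate 3 bound 18 against 36.1%. The gene table gives no strand, so promoters and gene 3′ ends were not told apart.

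Many of these summits could belong to a neighbour. The rule gave 9 of 15 btl, 3 of 8 trh and 22 of 41 replicate 3 summits to another protein-coding gene as well. The share of all summits given to more than 1 gene is not reported here for comparison. Members with at least 1 summit of their own numbered 5 for btl, 4 for trh and 11 for replicate 3, against 17.3%, 9.17% and 21.6% of all protein-coding genes. In the btl list these were Rab11, Rab14, Rab23, Rab32 and Rab35, and in the trh list Rab5, Rab11, Rab23 and Rab40.

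Fold enrichment at the members was moderate. In the btl list the strongest fold per bound member ranged from 1.80 to 4.31 with a median of 2.45, and the median over all 4651 bound genes was 2.92. Of the 11 members, 3 (Rab32, RabX6 and Rab30) lay above that gene median. In the trh list the members ranged from 1.58 to 2.15 with a median of 2.02, against 2.23 over 1932 bound genes, and 0 of 7 lay above it. In replicate 3 the range was 1.52 to 8.14 with a median of 2.92, against 3.11 over 5535 bound genes, and 9 of 19 lay above it. Rab10, Rab14, Rab35, Rab40 and Rab5 were the strongest there, with 8.14, 7.24, 5.81, 5.56 and 5.22.

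The order of the members depended on whether fold enrichment or the authors' -log10 q, a measure of statistical strength, was used to rank. In the btl list all 11 members stood higher by -log10 q than by fold, as did 61.9% of all bound genes. The median place of the members moved from 68.5% to 25.6% of the way down the list, and that of all bound genes from 47.7% to 39.1%. Rab14 moved most, from 68.5% to 19.4%. In the trh list 3 of 7 stood higher by -log10 q (53.3% of all bound genes). The members' median went from 61.7% to 65.8%, and that of all bound genes from 44.8% to 41.7%. In replicate 3, 16 of 19 did (62.3% of all bound genes), with medians of 32.0% and 31.9%. Over all bound genes of that list the medians were 27.9% and 26.5%.

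**Figure D3:**
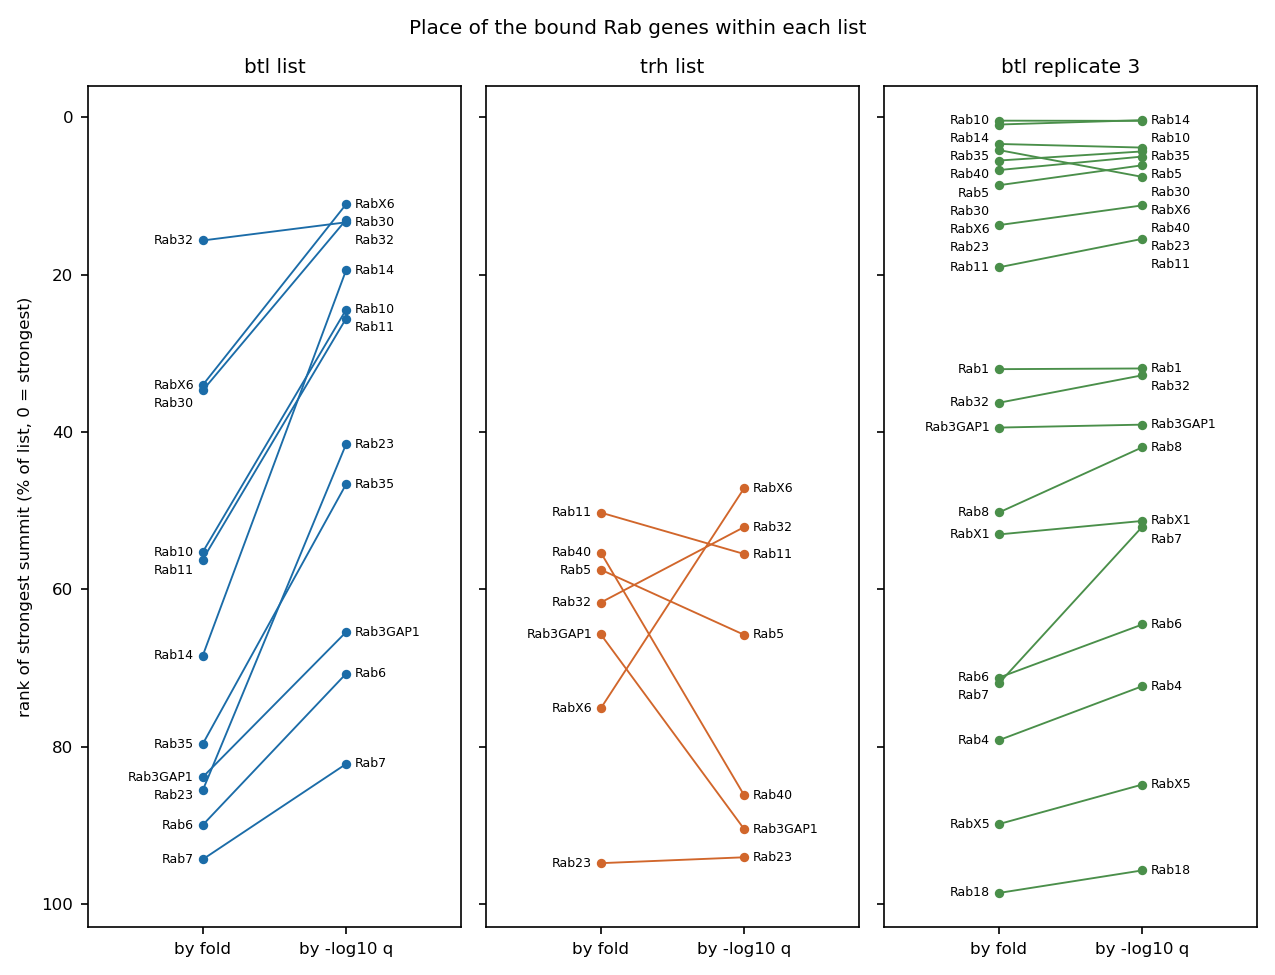
Place of the strongest summit of each bound Rab gene within its own list, as a percentage of the summits in the list (y axis, 0 is the strongest), ranked by fold enrichment (left of each panel) or by -log10 q (right), with 1 line per gene. Names are moved apart where points crowd. In the btl list all 11 lines rise from left to right, and the trh lines begin between 50.2% and 94.8% of the way down the list.

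Longer genes were bound more often, and the members were read against genes of their length, as the plot by gene length shows. The median member was 2882 bp long. Among genes of 2 to 5 kb, the btl list bound 6 of 14 members (32.9% of all genes of that length), the trh list 2 of 14 (10.1%) and replicate 3 bound 10 of 14 (43.4%). Among genes under 2 kb the counts were 2, 1 and 5 of 15, against 18.0%, 4.45% and 22.4%. Among genes of 5 kb or more they were 3, 4 and 4 of 7, against 62.7%, 35.7% and 68.1%. The 4 long trh members were Rab5, Rab23, Rab32 and Rab3GAP1.

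**Figure D4:**
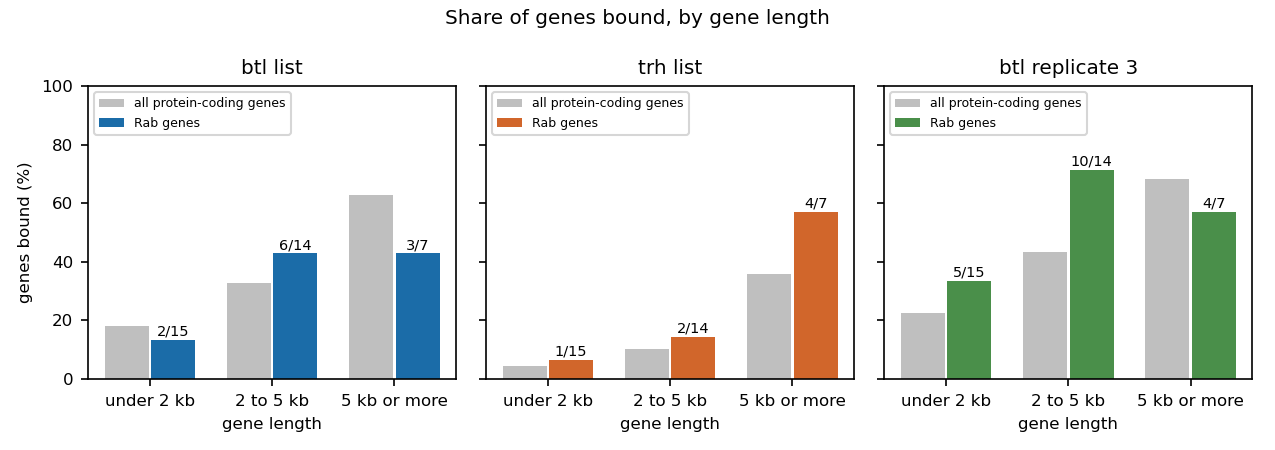
Share of genes bound (y axis, %) by gene length for all protein-coding genes (grey bars) and Rab genes (coloured bars, with the number bound of the number in the class) in the btl list, the trh list and btl replicate 3. The grey bars rise with length in each list, from 4.45% to 35.7% in the trh list.

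The genes that deliver, switch and read Rab proteins were described from lists of gene names. Of 64 such genes matched in the gene table, the btl list bound 34 (53.1%), the trh list 13 (20.3%), replicate 3 bound 45 (70.3%) and the highest-confidence list 11 (17.2%). The shares over all protein-coding genes were 33.4%, 13.9%, 39.8% and 10.7%. Their median length was 3489 bp. These genes were longer than the Rab genes and than all genes, whose medians were 2882 and 2163 bp, and the differences in share were not tested. By group, to be read against the same shares over all genes, delivery and activation genes were bound in 9, 3 and 10 of 14 cases, for btl, trh and replicate 3. TBC genes were bound in 8, 5 and 9 of 12, genes of the TRAPP exchange complex in 3, 0 and 5 of 8, and effectors and tethers in 14, 5 and 21 of 30.

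The strongest btl summits in these lists were at btsz, for a synaptotagmin-like protein, with a fold of 8.15, at Evi5, a TBC protein that acts on Rab11, with 6.17, and at nuf, a Rab11 effector, with 5.76. In the trh list they were at Evi5 (4.33, rank 18 of 3210), nuf (4.11, rank 32) and sky (3.46, rank 130), the last a TBC protein known from synapses. In replicate 3 they were at l(3)76BDm of the TRAPP list (7.24), spri, a Rab5 exchange factor (7.23), and Rilpl (7.03). Evi5, nuf, sky, spri and btsz are between 23864 and 95354 bp long. At wkd, a GAP of Rab35, named after its values were seen, the folds were 3.81 (btl), 1.77 (trh) and 5.92 (replicate 3). Likewise named afterwards, Rep, the Rab escort protein, had 4.74, 2.19 and 3.91, and Gdi, the dissociation inhibitor, had 2.27 in the btl list, 6.54 in replicate 3 and no trh summit.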

How the data were processed

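The deposited files were 3 narrowPeak lists and 1 list of regions, all without headers. The submitters' processing notes name the dm6 build, Bowtie2 2.3.4.3 and 2.3.4.1, SAMtools 1.9 and 1.7, Picard, MACS2 2.2.4 and bedtools, without saying which step used which. Per the labels, the btl and trh lists were filtered at an IDR of 0.1. The columns were read from the narrowPeak layout that MACS2 writes: the deposited score (a scaled IDR in the btl and trh lists), the deposited ratio (fold enrichment at the summit) and the deposited -log10 q. Coordinates are 1-based on Release 6. In all, 6 lines off the arms were left out. Binding was assigned with Python 3.11.15 and pandas 2.3.3, by code tested on simulated data, and Wilson 95% intervals came from SciPy 1.17.1.

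Members, pathway lists and tests were chosen with earlier results of these data known, and role groups were made by hand. Named genes were members bound in all 3 lists with summits, in 1 list or in none, the 5 strongest per list, and the 3 strongest pathway genes per list; the other bound members are also given. Of the pathway names, 1 (TBC1D22) had no match. Alternatives changed the window, threshold, list size, summit rule, assignment and member list. Protein and promoter sequences were not analysed here. A planned comparison with other small GTPase genes is not reported here.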

Additional observations from a re-analysis of the deposited data

How the results depend on the processing

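The number of bound members was recomputed under other windows, thresholds and assignments. With the upper 50% of each list by fold enrichment, the btl list bound 3 members (Rab30, Rab32 and RabX6), the trh list 0 and replicate 3 bound 12, against 17.4%, 7.59% and 28.3% of all protein-coding genes. With the btl list and replicate 3 shortened to 3210 summits, the counts were 3 and 8, against 13.6% and 15.3%. With the upper 50% by -log10 q the trh count was 1 (7.99% of all genes), and at an IDR of 0.05 it was 3 (Rab11, Rab32 and RabX6; 11.2%). With gene ends alone it was 3 in the trh list (8.32%) and 2 in the highest-confidence list (6.60%). Counting summits or regions that the rule gave to no other gene, an alternative chosen after seeing the data, left 5 btl, 4 trh, 11 replicate 3 and 2 highest-confidence members, against 17.3%, 9.17%, 21.6% and 6.26% of all genes. The cause of these moves was not tested. Each of these settings gives fewer summits or regions to genes than the main rule does. The other 30 recomputed counts were within 1.5 times the reported ones. They include counts without the Rab9D to Rab9Fb copies, an alternative that was also not planned. Those counts could not change, because the copies were bound in no list. A window of 1000 bp added Rab4, Rab18, Rab19 and Rab26 in the btl list and Rab19, Rab26 and Rab39 in replicate 3. No paired analysis was possible because the lists hold no values of single replicates other than btl replicate 3, which also prevented leaving out replicates in turn. Read depth is unknown, so a missing summit is not evidence of no binding.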
